A study of Homo sapiens with 22 samples.

Results

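Chromatin was profiled here at the axon guidance ligands and receptors, 64 of the 19122 protein-coding genes of chromosomes 1 to 22, in the cell lines A673 and CHLA10. Both lines were established from Ewing sarcoma, a tumour of bone and soft tissue driven in most cases by the EWS-FLI1 fusion, and the title of the study sets that fusion beside the homeobox factor HOXD13 in tumour cell plasticity. Members were taken by symbol. They comprised 20 semaphorins of classes SEMA3 to SEMA7, 7 plexins, 8 ephrins, 14 Eph receptors, 3 SLIT ligands, 4 ROBO receptors, 4 netrins and 4 UNC5 receptors. EFNA4-EFNA3 is a readthrough gene that shares 1 end with EFNA4 and 1 with EFNA3, and EFNB1, PLXNA3 and PLXNB3 were left out because they lie on the X chromosome. CUT&RUN, in which an antibody directs a nuclease to chromatin, gave H3K4me3, H3K27ac, H3K4me1 and H3K27me3 maps, in 2 libraries per mark from A673 cells labelled shNS and 2 from CHLA10 cells labelled shNS. HOXD13 was mapped in 1 library of A673 and 1 of CHLA10, and these carry no shNS label. The labels do not spell out shNS, name no treatment, and do not say whether replicates came from separate cultures. A673 was grown in RPMI medium and CHLA10 in IMDM, so the line, its tumour and its medium cannot be told apart.

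Guidance ligands steer growing axons and migrating cells by attraction or repulsion. Semaphorins act through plexins, those of class 3 together with neuropilins. Ephrins are membrane-bound ligands of the Eph receptor tyrosine kinases and can signal back into the cell that carries them. SLIT ligands repel cells that carry ROBO receptors, and netrins repel through UNC5 receptors and attract through DCC. The same families also act in blood vessels, bone and neural crest, and several are altered in tumours.

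H3K4me3 marks promoters that are active or poised, H3K27ac marks active promoters and enhancers, H3K4me1 marks enhancers, and H3K27me3 marks chromatin held by Polycomb repressors. Gene ends were windows of 1 kb on either side of both gene boundaries, and a window was marked where a deposited peak overlapped it by at least 1 bp. The 64 members had a median length of 54.7 kb, against 24.5 kb over all genes, with a range of 2.85 kb for NTN3 to 1743 kb for ROBO2. The RefSeq table gave a transcription start for 55 of them. All 8 listed Ewing sarcoma genes, among them NKX2-2 and STEAP1, carried H3K4me3 in both libraries of each line. Of 12 listed genes of other cell types, 1 did in A673 (MYOD1) and 1 in CHLA10 (EPCAM). A gene is called below for a line when both of its libraries and neither library of the other line had a peak. No p-value is given, since the smallest that an exact permutation of 2 libraries against 2 allows is p = 0.33. Each main count stands beside the share of all 19122 genes with the same call. Counts under alternative settings have that share only in part, and without it they do not set members apart from other genes. The authors' fold enrichments are given per library as a description of each peak and are not compared between lists.

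**Figure D1:**
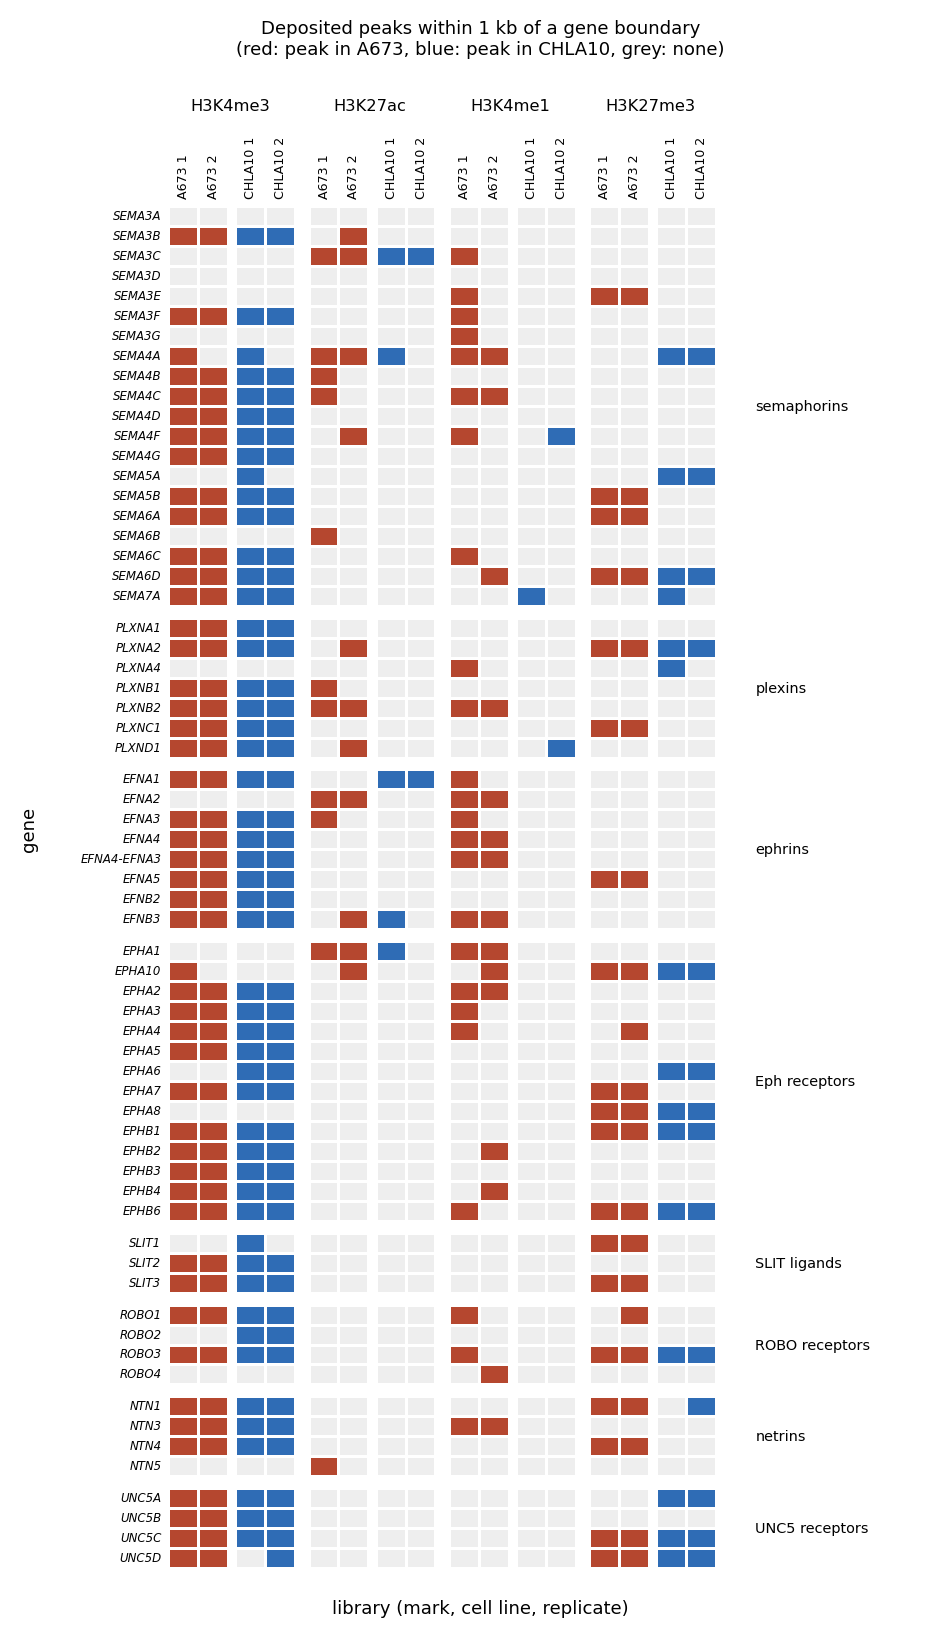
Rows are the 64 guidance genes grouped by family, and columns are the 16 histone mark libraries, A673 left of CHLA10 within each mark. A filled cell (red in A673, blue in CHLA10) is a deposited peak within 1 kb of a gene boundary: H3K4me3 fills 45 rows in all 4 libraries, and H3K27me3 fills 9 rows in all 4.

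Promoter windows of 5 members are printed because the results below turn on them. SLIT3 and SEMA3E carried H3K27me3 in A673, SEMA5A and EPHA6 carried it in CHLA10, and SEMA3D had H3K4me3 over its start in every library. Each window holds 250 bases before and 50 after the start, 5′ to 3′ on the gene's strand, from RefSeq on GRCh38.p14, with every CG in capitals.
SLIT3: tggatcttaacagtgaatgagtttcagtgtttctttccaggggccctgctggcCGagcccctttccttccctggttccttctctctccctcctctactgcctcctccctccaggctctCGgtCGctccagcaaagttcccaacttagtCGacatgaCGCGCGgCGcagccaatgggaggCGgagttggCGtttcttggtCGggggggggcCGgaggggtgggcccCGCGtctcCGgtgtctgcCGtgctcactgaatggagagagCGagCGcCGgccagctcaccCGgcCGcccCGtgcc
SEMA3E: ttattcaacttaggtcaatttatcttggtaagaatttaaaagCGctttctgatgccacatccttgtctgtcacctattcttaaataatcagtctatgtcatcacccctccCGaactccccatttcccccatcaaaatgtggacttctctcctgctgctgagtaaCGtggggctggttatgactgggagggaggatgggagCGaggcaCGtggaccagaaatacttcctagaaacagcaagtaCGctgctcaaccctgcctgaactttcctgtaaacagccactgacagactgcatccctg
SEMA5A: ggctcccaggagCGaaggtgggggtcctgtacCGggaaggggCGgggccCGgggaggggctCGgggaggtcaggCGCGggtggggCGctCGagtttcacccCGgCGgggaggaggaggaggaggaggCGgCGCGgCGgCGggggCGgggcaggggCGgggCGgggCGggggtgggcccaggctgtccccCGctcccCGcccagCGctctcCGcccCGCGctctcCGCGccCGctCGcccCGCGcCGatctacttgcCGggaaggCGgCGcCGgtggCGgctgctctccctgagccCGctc
EPHA6: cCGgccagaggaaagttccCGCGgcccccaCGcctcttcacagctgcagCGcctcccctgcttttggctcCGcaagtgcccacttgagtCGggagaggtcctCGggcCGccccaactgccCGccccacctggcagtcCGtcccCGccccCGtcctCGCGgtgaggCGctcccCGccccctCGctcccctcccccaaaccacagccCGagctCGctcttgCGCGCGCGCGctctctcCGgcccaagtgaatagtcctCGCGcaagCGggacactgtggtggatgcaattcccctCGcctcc
SEMA3D: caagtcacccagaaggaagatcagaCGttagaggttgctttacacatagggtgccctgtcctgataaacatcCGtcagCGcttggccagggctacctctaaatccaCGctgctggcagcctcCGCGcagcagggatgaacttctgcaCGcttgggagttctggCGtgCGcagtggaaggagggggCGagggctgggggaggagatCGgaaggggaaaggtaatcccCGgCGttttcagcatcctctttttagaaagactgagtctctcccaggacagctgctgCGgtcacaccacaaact
The SLIT3 window is chr5:169301090-169301389 on the minus strand and holds 22 CG dinucleotides. The SEMA3E window, chr7:83649090-83649389 on the minus strand, holds 6. The SEMA5A window, chr5:9546026-9546325 on the minus strand, holds 39 and the EPHA6 window, chr3:96814344-96814643 on the plus strand, holds 30. The SEMA3D window, chr7:85187007-85187306 on the minus strand, holds 14. CG, which reads the same on both strands, had a median count of 21 over the 55 windows of members and 22 over 15100 windows of all genes. At least 1 was present in 100% of the windows of members and in 98.1% of all windows. Members with H3K4me3 in all 4 libraries had a median of 22 (40 windows), against 27 for all genes with that call. Members with H3K4me3 in no library had a median of 15.5 (10 windows), against 5 for all such genes.

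H3K4me3 stood at the ends of most guidance genes in both lines. It was present in all 4 libraries at 45 of 64 members (70.3%), beside 61.8% of all genes, and in no library at 12 (18.8%), beside 30.4%. By family, 7 of 8 ephrins, 6 of 7 plexins, 10 of 14 Eph receptors, 12 of 20 semaphorins, 3 of 4 netrins, 3 of 4 UNC5 receptors, 2 of 3 SLIT ligands and 2 of 4 ROBO receptors were marked in all 4. Replicates gave nearly the same set, since 46 of the 48 A673 members with a peak in either library had it in both, as did 47 of 51 in CHLA10. Where the start was known, the H3K4me3 peak lay at the boundary on the start side: in 41 and 40 members in the A673 libraries and 45 and 42 in the CHLA10 libraries, with 0 members marked at the far end alone. That boundary is not always the start. No H3K4me3 peak came within 1 kb of the start of EPHB6, PLXNB2 or SEMA3B in any library, and at SEMA4D and ROBO2 it did so only in some libraries. No member was called for A673 (1.98% of all genes), and 2 were called for CHLA10 (1.87% of all genes), the receptors EPHA6 and ROBO2.

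**Figure D2:**
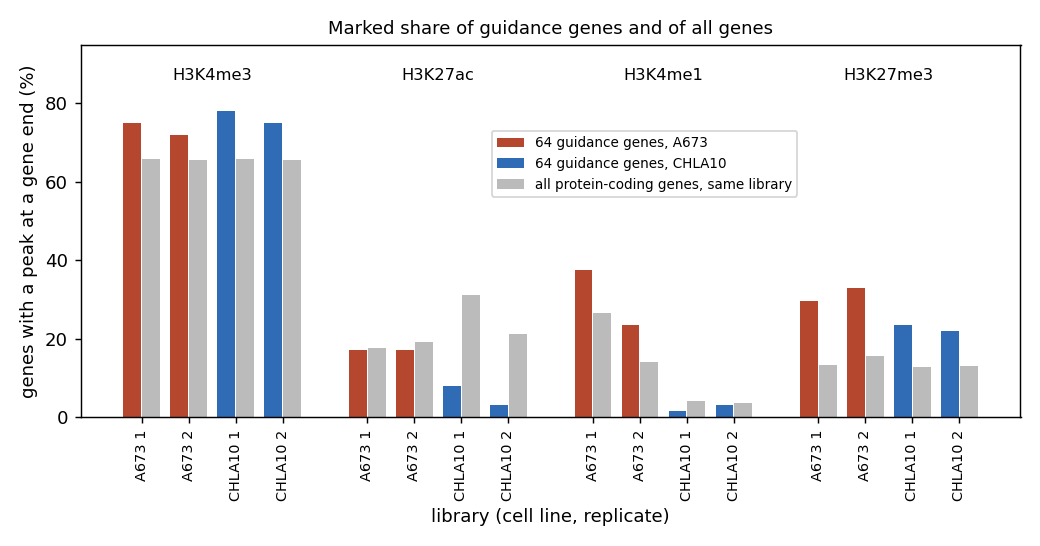
Bars give the percent of the 64 guidance genes (A673 red, CHLA10 blue) and of all protein-coding genes (grey) with a peak at a gene end in each library. H3K27ac marked 17.2% of guidance genes in each A673 library, and 7.81% and 3.12% in the CHLA10 libraries, where 31.2% and 21.2% of all genes were marked.

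At the gene ends, guidance genes carried H3K27ac in about the share of all genes in A673 and in a smaller share than all genes in CHLA10. The mark was found at 11 members (17.2%) in each A673 library, where 17.5% and 19.1% of all genes had it. In CHLA10 it was found at 5 (7.81%) and 2 (3.12%) members, where 31.2% and 21.2% of all genes had it. Among genes with H3K4me3 in both libraries of a line, H3K27ac stood at 5 and 6 of 46 members in A673 (10.9% and 13.0%, against 21.3% and 23.3% of all such genes). In CHLA10 it stood at 2 and 1 of 47 members (4.26% and 2.13%, against 45.7% and 31.2%). No library had H3K27ac at the ends of 46 members (71.9%, beside 52.1% of all genes). H3K27ac replicates shared fewer members than those of H3K4me3: 5 of 17 in A673 and 2 of 5 in CHLA10 were marked in both.

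The ephrin EFNA2 and the plexin PLXNB2 were called for H3K27ac in A673 (2.31% of all genes), and the ephrin EFNA1 in CHLA10 (8.5% of all genes). EFNA2, a GPI-anchored ligand of EphA receptors, had folds of 5.75 and 6.55 in A673, on its start side, and no peak in CHLA10. PLXNB2, a receptor for class 4 semaphorins, had folds of 21.1 and 13.6 in A673 at a boundary it shares with DENND6B, and no peak at its ends in CHLA10. An H3K27ac peak of CHLA10 replicate 2 overlapped the strongest H3K4me3 peak of PLXNB2, and the call was lost with windows of 2.5 kb and with the start alone. EFNA1 had no H3K27ac peak at its ends in A673 and folds of 6.15 and 6.92 in CHLA10, at its far end, which lies beside SLC50A1, and this call was lost with the start alone. The A673 count depended on both libraries being asked for: it was 7 without A673 replicate 1 (8.56% of all genes) and 8 without A673 replicate 2 (7.28%), and it was 4 without CHLA10 replicate 1. SEMA3C was the sole member with H3K27ac at its ends in all 4 libraries (4.05% of all genes), but the peaks lay on its start side in A673 (folds 4.27 and 6.37) and at its far end in CHLA10 (3.96 and 9.03).

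The combination of H3K4me3 and H3K27ac without H3K27me3, the usual pattern of an active promoter, was met by 1 member in A673 (PLXNB2, 6.54% of all genes) and 1 in CHLA10 (EFNA1, 17.1%). Both gene ends are pooled here, and with the start alone neither gene met it. In A673 neither mark came within 1 kb of the PLXNB2 start. At EFNA1 in CHLA10, H3K4me3 lay at the start and H3K27ac did not come within 1 kb of it. The A673 count was 5 without either H3K27ac library and 2 without H3K4me3 replicate 2, and the CHLA10 count was 2 without H3K27ac replicate 2. H3K4me3 with neither H3K27ac nor H3K27me3 stood at 20 members in A673 (31.2%, beside 36.2% of all genes) and 35 in CHLA10 (54.7%, beside 28%). In both lines 17 members had it (17.5% of all genes), among them EPHA2, EPHA3, EPHA5, EPHB2, EPHB3 and EPHB4 of the Eph receptors. This holds for the windows at the gene ends. At EPHA3 the CHLA10 H3K4me3 peaks were 9.81 and 9.72 kb long and overlapped H3K27ac outside those windows in both CHLA10 libraries.

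H3K27me3 was found at guidance genes in a larger share than over all genes in every library. The mark stood at 19 and 21 members in A673 (29.7% and 32.8%, against 13.2% and 15.6% of all genes) and at 15 and 14 in CHLA10 (23.4% and 21.9%, against 12.9% and 12.9%). Of members with H3K4me3 in both libraries of the line, 15 and 17 of 46 also carried H3K27me3 in A673 (32.6% and 37.0%, against 9.53% and 10.9% of all such genes), and 9 and 9 of 47 in CHLA10 (19.1% in each, against 5.71% and 5.75%). The mark was in all 4 libraries at 9 members (14.1%, beside 6.53% of all genes) and in none at 37 (57.8%, beside 78.4%). In A673, 9 members were called (14.1%, beside 4% of all genes), and in CHLA10, 4 were called (6.25%, beside 2.67%). All 9 A673 calls and 3 of the 4 CHLA10 calls were among the 32 members of at least the members' median length. Of all 5545 genes of that length, 6.85% had the A673 call and 2.15% the CHLA10 call.

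The ligands called for H3K27me3 in A673 were SLIT1, SLIT3, SEMA3E, SEMA5B, SEMA6A, EFNA5 and NTN4. SLIT3 on chromosome 5 (168661740 to 169301139) had folds of 4.95 and 5.27 in A673 and no peak at its ends in CHLA10. H3K27me3 peaks covered 55.1% and 65.8% of SLIT3 in the A673 libraries, and 6.13% and 5.76% in the CHLA10 libraries. SEMA3E, a class 3 semaphorin that signals through PLXND1, had folds of 4.94 and 4.72 in A673, where peaks covered 59.7% and 66.0% of the gene, against 1.51% and 0% in CHLA10. SEMA5B had folds of 5.38 and 5.20 in A673, with 39.8% and 54.8% of the gene covered in A673 and 0% in both CHLA10 libraries. For these 3 ligands the libraries of the lines did not overlap, and the domain ran far beyond the promoter in A673.

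At SEMA6A, EFNA5 and NTN4 the A673 domain was short. SEMA6A, a membrane semaphorin that binds plexins of class A, was covered over 2.59% and 3.39% of its length in A673, and EFNA5 over 3.89% and 5.44%, both with 0% in CHLA10. EFNA5, a GPI-anchored ephrin, had peaks of 8.37 and 6.81 kb at its start in A673, with folds of 4.28 and 4.31. NTN4, a secreted netrin of basement membranes, had folds of 3.79 and 3.28 at its start in A673 and no peak at its ends in CHLA10. Over the length of NTN4 the lines overlapped, with 0% and 1.74% covered in A673 and 0% and 2.63% in CHLA10, and the NTN4 call was lost with the upper 50% of each list and with equal peak number. SLIT1 ran against its call over the gene as a whole: its ends were marked in A673 (folds 5.00 and 4.18), yet 12.9% and 17.0% of its length was covered in A673 and 27.8% and 27.5% in CHLA10. The SLIT1 call was lost with windows of 2.5 kb.

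Receptors called for H3K27me3 in A673 were EPHA7 and PLXNC1. EPHA7, a receptor of GPI-anchored ephrins, had folds of 4.09 and 3.75 in A673 over peaks of 7.19 and 7.40 kb at its start, and no peak in CHLA10. PLXNC1, the receptor of SEMA7A, had folds of 5.86 and 6.17 in A673, with 24.4% and 23.1% of the gene covered, against 0% in both CHLA10 libraries. These peaks lay at the outer boundary of PLXNC1, 114504 and 104787 bp from the start in the RefSeq promoter table, and the call was lost with the start alone. H3K4me3 stood at both genes in all 4 libraries. EPHA7 had H3K4me3 folds of 44.1 and 53.5 in A673 and 15.3 and 15.0 in CHLA10. PLXNC1 had 16.9 and 15.3 in A673 and 36.5 and 27.3 in CHLA10.

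**Figure D3:**
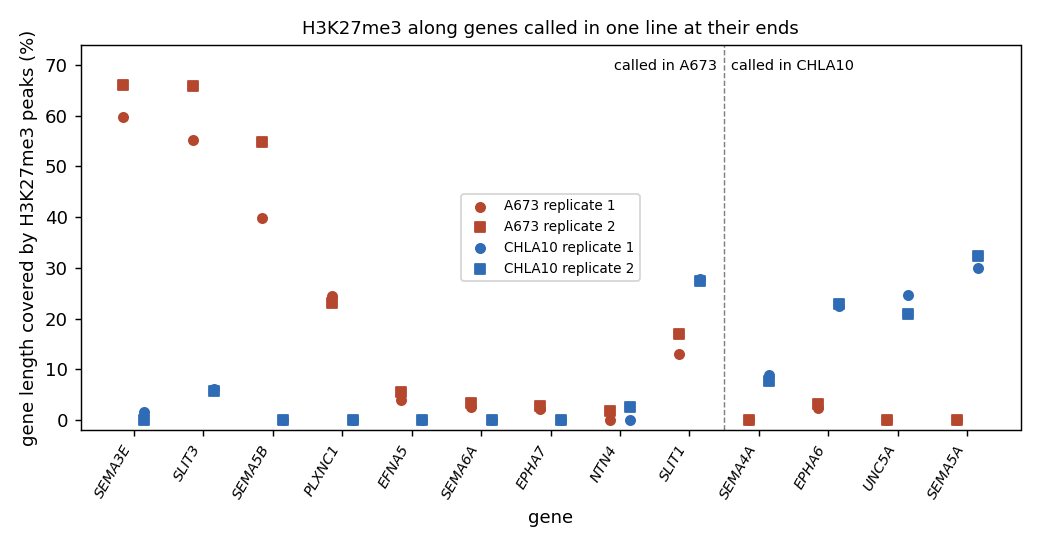
Points give the percent of each gene's length covered by H3K27me3 peaks in each library (circles replicate 1, squares replicate 2; A673 red, left of CHLA10 blue) for the 13 members called at their ends in 1 line. SEMA3E, SLIT3 and SEMA5B lie between 39.8% and 66.0% in A673 and at or below 6.13% in CHLA10, while SLIT1 lies higher in CHLA10 despite its call in A673.

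The 4 members called for H3K27me3 in CHLA10 were the ligands SEMA4A and SEMA5A and the receptors EPHA6 and UNC5A. SEMA5A, a transmembrane semaphorin, had no H3K27me3 peak in A673 and folds of 4.83 and 4.98 in CHLA10, with 0% of the gene covered in both A673 libraries and 30.0% and 32.4% in the CHLA10 libraries. H3K4me3 stood at its ends in CHLA10 replicate 1 (fold 5.84), and CHLA10 replicate 2 had an H3K4me3 peak of fold 7.68 lying 1.15 kb inside the boundary. Neither A673 library had an H3K4me3 peak in SEMA5A. UNC5A, a netrin receptor, was covered over 0% in both A673 libraries and 24.6% and 20.9% in CHLA10. H3K4me3 stood at UNC5A in all 4 libraries, with folds of 33.8 and 27.3 in A673 and 7.14 and 9.59 in CHLA10. SEMA4A was covered over 0% in both A673 libraries and 8.86% and 7.62% in CHLA10, and the call was lost under 3 alternatives: an overlap of at least 200 bp, the 50% of peaks with the highest −log10 q, and equal peak numbers. The UNC5A call was lost under both cuts of the lists, but not under the larger overlap.

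EPHA6 had both H3K4me3 and H3K27me3 at its ends in CHLA10 and neither mark at its ends in A673. No H3K4me3 peak touched the gene itself in any library, so the CHLA10 peaks lay just outside its boundary. Its H3K4me3 folds were 5.84 and 6.40 in CHLA10, low beside the median of 22.4 and 20.3 over the members marked in those libraries. H3K27me3 peaks covered 2.38% and 3.21% of EPHA6 in A673 and 22.4% and 22.9% in CHLA10. The H3K4me3 call of EPHA6 was lost with windows of 2.5 kb and with the upper 50% of each list, and its H3K27me3 call with the upper 50%.

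Counted over the whole gene, H3K27me3 did not lean to A673. Both A673 libraries covered more of the gene than both CHLA10 libraries at 13 members (9.1% of all genes), and the reverse held at 14 (7.83% of all genes). Among the 14, EPHB1 had 8.86% and 14.7% covered in A673 and 50.5% and 46.8% in CHLA10. EPHA8 had 30.0% and 43.5% in A673 and 77.4% and 86.3% in CHLA10. PLXNA4, a plexin of class A, had 29.8% and 45.9% in A673 and 63.4% and 60.3% in CHLA10. UNC5D had 0.402% and 0.609% in A673 and 18.8% and 19.0% in CHLA10.

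H3K4me3 and H3K27me3 together, the pair known from poised promoters of developmental genes, stood at 15 members in A673 (23.4%, beside 5.78% of all genes) and 8 in CHLA10 (12.5%, beside 2.89%). In both lines 6 members had the pair (9.38%, beside 1.89% of all genes). Of genes of at least the members' median length, 13 of 32 members had the pair in A673 (40.6%, beside 11.5% of all such genes) and 6 of 32 in CHLA10 (18.8%, beside 5.37%). The call asks for each mark at either gene end, so the peaks of the pair need not lie in the same window. In bulk chromatin the marks may lie on the same or on different chromosomes and cells, which peak lists cannot tell apart.

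The 6 members with the pair in both lines were the receptors EPHB1, EPHB6, ROBO3, UNC5C and PLXNA2 and the ligand SEMA6D. EPHB1 had H3K27me3 folds of 7.11 and 7.10 in A673 and 4.89 and 4.87 in CHLA10. EPHB6, an Eph receptor whose kinase domain is inactive, had 5.21 and 4.56 in A673 and 4.59 and 4.70 in CHLA10. At ROBO3, which tunes the response of commissural axons to SLIT, H3K27me3 folds were 4.75 and 5.66 in A673 and 6.04 and 6.07 in CHLA10. The mark covered 48.0% and 46.2% of ROBO3 in A673 and 56.2% and 59.2% in CHLA10. H3K4me3 lay at the ROBO3 start in every library, but no H3K27me3 peak came within 1 kb of that start. Nor did H3K27me3 overlap the strongest H3K4me3 peak of ROBO3 in any library. UNC5C had H3K27me3 folds of 4.50 and 3.67 in A673 and 3.36 and 4.01 in CHLA10, PLXNA2 had 4.97 and 4.78 in A673 and 3.91 and 5.10 in CHLA10, and SEMA6D had 3.58 and 3.31 in A673 and 3.69 and 3.94 in CHLA10. A further 9 members had the pair in A673: EPHA7, SLIT3, UNC5D, EFNA5, NTN1, NTN4, PLXNC1, SEMA5B and SEMA6A. A further 2 had it in CHLA10: EPHA6 and UNC5A. H3K27me3 without H3K4me3 in either library stood at EPHA8, SLIT1 and SEMA3E in A673 (4.69%, beside 5.76% of all genes) and at EPHA10 and EPHA8 in CHLA10 (3.12%, beside 7.05%).

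H3K4me1 was called at 10 members in A673 (15.6%, beside 7.96% of all genes) and at none in CHLA10 (0.272% of all genes). No member had it in all 4 libraries (0.507% of all genes), and 33 had it in none (51.6%, beside 66.7%). List sizes differed, with 106834 and 43113 peaks in A673 and 23442 and 20965 in CHLA10. When the lists were reduced to the same peak number, 4 members were called in A673. Without A673 replicate 2 the count was 23, beside 23.1% of all genes. The ligands called were EFNA2, EFNA4, EFNA4-EFNA3, EFNB3, NTN3, SEMA4A and SEMA4C, and the receptors EPHA1, EPHA2 and PLXNB2. EPHA1 had folds of 22.9 and 17.1 in A673, on its start side. EPHA2, a receptor of EFNA1, had 14.8 and 17.7 in A673 at its start and also carried H3K4me1 at its far end. PLXNB2 had 12.4 and 12.7, and EFNB3 had 9.90 and 9.50. The other 6 had folds between 3.61 and 8.87, all without a peak at their ends in CHLA10. The calls of EFNA2, EFNA4, EFNA4-EFNA3, NTN3, SEMA4A and SEMA4C were lost under at least 2 alternatives each.

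SEMA3A and SEMA3D were the sole members with none of the 4 marks at their ends in any library (11.4% of all genes). Both are secreted repellents that bind neuropilins, and both carried strong H3K4me3 inside the annotated gene. SEMA3A had an H3K4me3 peak of 6.21 and 5.18 kb in A673 and of 5.34 and 5.61 kb in CHLA10, 235 kb inside its nearest boundary in A673 replicate 1. The folds were 71.0 and 52.6 in A673 and 20.8 and 33.6 in CHLA10. SEMA3D had folds of 79.0 and 53.6 in A673 and 35.6 and 30.9 in CHLA10, over the window printed above, with the peak edge 62.5 kb inside the outer boundary in A673 replicate 1. SEMA3C and PLXNA4 also lacked H3K4me3 at their ends and held it inside in all 4 libraries. Of the 12 members with no H3K4me3 at their ends in any library, 4 held it inside in all 4 libraries. Of all 5817 genes with that call, 12.7% did, a share not matched for gene length. In 5 of the 12 no library held it inside: EPHA8, NTN5, ROBO4, SEMA3G and SEMA6B.

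The ROBO2 call for H3K4me3 in CHLA10 likewise concerned an outer boundary. ROBO2, a receptor of SLIT ligands on chromosome 3 (75906675 to 77649964), had no peak at its ends in A673 and folds of 10.4 and 11.4 in CHLA10. The strongest H3K4me3 peak inside ROBO2 was present in every library, with folds of 49.9 and 55.4 in A673 and 20.1 and 12.0 in CHLA10. H3K4me3 peaks touching the gene numbered 1 and 2 in A673 and 13 and 12 in CHLA10. The call was lost with the start alone and with the upper 50% of each list.

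The calls were therefore repeated at the strongest H3K4me3 peak touching each gene, for the 51 members with such a peak in all 4 libraries, a choice made after seeing the data. That peak was picked in each library separately and can differ between libraries. A mark library counted for a line where it overlapped the pick of either H3K4me3 library of that line. H3K27ac overlapped it in both CHLA10 libraries and neither A673 library at 7 members, EFNA1, EFNA3, EFNA4-EFNA3, EPHA3, SEMA3A, SEMA3C and SEMA3D (13.7%, beside 14.5% of 12566 genes), and in A673 at 0 (1.68% of those genes). EFNA3 and EFNA4-EFNA3 share that peak except in A673 replicate 2, where the pick for EFNA4-EFNA3 was the peak at the start of EFNA4. H3K27me3 overlapped it for A673 at 8 members, EFNA5, EFNB2, EPHA7, NTN4, PLXNC1, SEMA5B, SEMA6A and SLIT3 (15.7%, beside 3.67%), and for CHLA10 at 0 (0.294%). At NTN4 the pick of A673 replicate 2 overlapped H3K27me3 and that of replicate 1 did not. EFNB2 lies on chromosome 13, where H3K27me3 marked 12.4% and 14.5% of genes in A673 and 3.85% and 4.44% in CHLA10. Whether the EFNB2 result follows from this was not tested. H3K4me1 overlapped the strongest H3K4me3 peak for A673 at 9 members (17.6%, beside 9.68%) and for CHLA10 at 0 (0.462%). EPHB3 is among the 9, although its A673 picks were different peaks, each overlapped by H3K4me1 in 1 library. EFNA4-EFNA3 is also among the 9, and only its pick in A673 replicate 2 overlapped H3K4me1. At SEMA3A, SEMA3C and SEMA3D, which lie on chromosome 7, the strongest H3K4me3 peak was thus present in both lines and overlapped H3K27ac in CHLA10. That of SEMA3D covers the printed start, and that of SEMA3C lay 2.77 to 2.97 kb from the nearest boundary. These H3K27ac peaks lay outside the windows at the gene ends, so the counts of H3K27ac at the ends leave them out.

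HOXD13 peaks stood near some of the guidance genes in both lines. Within 100 kb of the gene, 31 members had a peak in A673 (48.4%, beside 39.6% of all genes) and 16 in CHLA10 (25%, beside 12%). All 16 with a peak in CHLA10 had one in A673 (8.44% of all genes had peaks in both). The lists held 7047 peaks on chromosomes 1 to 22 in A673 and 2060 in CHLA10, and with the A673 list cut to the CHLA10 peak number its count was 17. Each line had 1 HOXD13 library, so the counts have no replicate check. Gene length moved with the count: 23 of the 32 longer members had a peak in A673 (71.9%, beside 53.7% of all genes of that length) and 13 in CHLA10 (40.6%, beside 19.7%). Among the 32 shorter members it was 8 in A673 (25%, beside 33.9%) and 3 in CHLA10 (9.38%, beside 8.79%), and the same 3 had peaks in both lines (5.88% of genes that short). Peaks touched the gene itself at 21 members in A673 (32.8%, beside 11.4%) and 11 in CHLA10 (17.2%, beside 3.76%), all of them longer members (30.6% and 11.2% of all genes of that length). Per 100 kb of gene and flanks, members had 0.317 peaks in A673 and 0.108 in CHLA10, beside 0.258 and 0.0608 for all genes. The longer members had 0.375 and 0.134, beside 0.293 and 0.0762 for all genes of that length.

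Within 100 kb of members lay 81 distinct peaks in A673 and 28 in CHLA10, and 59 and 18 of them touched a member. None lay within 1 kb of a member's boundary, 0 of 81 in A673 and 0 of 28 in CHLA10, which allows shares of up to 4.45% and 12.3% (exact Clopper-Pearson 95% limits, counting error only). The share of all HOXD13 peaks near any gene boundary is not given, so these counts do not set members apart from other genes. Peaks overlapping one of the other line were 10 of 81 in A673 (12.3%, interval 6.08% to 21.5%, beside 7.28% of all A673 peaks) and 10 of 28 in CHLA10 (35.7%, 18.6% to 55.9%, beside 24.3%), and they lay near 10 members (15.6%, beside 4.21% of all genes). H3K4me1 overlapped 37 and 31 of the 81 A673 peaks by library (45.7% and 38.3%, beside 39.6% and 32.7% of all). H3K27ac overlapped 13 and 7 of them (16.05% and 8.64%, beside 18.6% and 14.9%). H3K4me3 overlapped 2 and 3 of them (2.47% and 3.70%, beside 8.997% and 8.76%). In CHLA10, H3K27ac overlapped 16 and 11 of the 28 (57.1% and 39.3%, beside 50.3% and 44.2%). There H3K4me1 overlapped 1 in each library (3.57%, beside 8.54% and 7.52%) and H3K4me3 overlapped 0 of 28 in each, which allows up to 12.3% (beside 8.98% and 9.42%). The HOXD13 and histone mark libraries came from differently labelled cells.

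**Figure D4:**
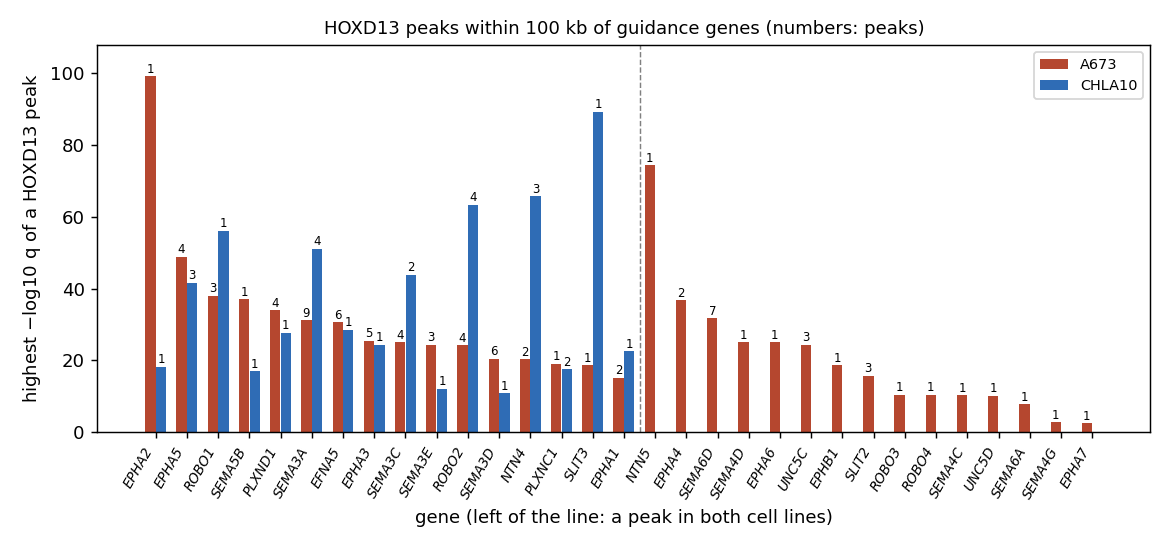
Bars give the highest −log10 q of a HOXD13 peak within 100 kb of each guidance gene in A673 (red, left) and CHLA10 (blue, right), with the number of peaks above each bar. The 16 genes left of the dashed line had peaks in both lines, and the 15 right of it in A673 alone.

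Among ligands, SLIT3 had the strongest HOXD13 peak in CHLA10, with a −log10 q of 89.3 and a fold of 38.6, inside the gene 63.95 kb from its start. It overlapped H3K27ac in 1 of the 2 CHLA10 libraries. The A673 peak in SLIT3 lay elsewhere in the gene (−log10 q 18.7) and overlapped H3K27me3 and H3K4me1 in both A673 libraries. NTN4 had 2 peaks in A673, the higher at 20.3, and 3 in CHLA10, of which 1 at 57.4 inside the gene overlapped the A673 peak and the highest, at 65.8, lay 10.7 kb outside the gene. NTN5 had a single A673 peak at 74.4, which lay 86.3 kb away with SULT2B1 as the nearest gene, and none in CHLA10. EFNA5 had 6 peaks in A673, the highest at 30.7, and 1 in CHLA10 at 28.6, with no overlap between lines.

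SEMA3A held 9 HOXD13 peaks in A673, the most of any member, and 4 in CHLA10, all inside the gene. The highest were 31.2 in A673 and 51.1 in CHLA10, and none overlapped between lines. One of the A673 peaks, at 28.5, overlapped the strong internal H3K4me3 peak of SEMA3A. SEMA3C had 4 peaks in A673 and 2 in CHLA10, with 1 overlapping site inside the gene, 11.1 in A673 and 43.9 in CHLA10, where it overlapped H3K27ac in both CHLA10 libraries. SEMA3D had 6 peaks in A673 and 1 in CHLA10, with an overlapping site inside the gene. SEMA3E had 3 in A673 and 1 in CHLA10, with an overlapping site 95.8 kb and 95.6 kb outside it. SEMA5B had 1 peak in A673 at 37.1 and 1 in CHLA10 at 17.0, which did not overlap. SEMA6D had 7 peaks in A673, the highest at 31.8, and none in CHLA10. Class 3 semaphorins accounted for 22 of the 82 pairs of a gene and a peak in A673 and 8 of 28 in CHLA10. All came from SEMA3A, SEMA3C, SEMA3D and SEMA3E, which are 537, 180, 255 and 286 kb long, beside a members' median of 54.7 kb. The share of the searched sequence in these genes is not given, so a preference for the class was not tested.

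Among receptors, EPHA2 had the strongest A673 peak, with a −log10 q of 99.1 in A673 and 18.2 in CHLA10 at an overlapping site 1.15 kb and 1.17 kb beyond its far boundary. In A673 the site overlapped H3K4me1 in both libraries, and in CHLA10 it overlapped none of the marks. EPHA5 had 4 peaks in A673, the highest at 49.0, and 3 in CHLA10, the highest at 41.6. That CHLA10 peak overlapped an A673 peak at 10.9, and both lay outside the gene. EPHA4 had 2 peaks in A673, the higher at 36.8, and none in CHLA10. EPHA3 had 5 peaks in A673 and 1 in CHLA10, and EPHA1 had 2 in A673 and 1 in CHLA10, with an overlapping site 94.2 kb and 94.1 kb away, nearest to CASP2. ROBO1 had 3 peaks in A673, the highest at 38.0, and 1 in CHLA10, with an overlapping site at 8.71 in A673 and 56.2 in CHLA10. ROBO2 had 4 peaks in each line, with an overlapping site at 24.2 in A673 and 63.3 in CHLA10. PLXND1, the receptor of SEMA3E, had 4 peaks in A673, the highest at 33.9, and 1 in CHLA10 at 27.7, with 1 overlapping site 45.2 kb and 45.3 kb away, nearest to TMCC1. PLXNC1 had 1 peak in A673 at 19.1 and 2 in CHLA10, the higher at 17.6.

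Of the 9 members called for H3K27me3 in A673, 6 had a HOXD13 peak within 100 kb in both lines: SLIT3, EFNA5, NTN4, PLXNC1, SEMA3E and SEMA5B. EPHA7 and SEMA6A had one in A673 alone, and SLIT1 had none. Of the 4 called in CHLA10, EPHA6 had one in A673 and SEMA4A, SEMA5A and UNC5A had none in either line. The 9 A673 calls are all longer members, among which peaks in both lines are more common. Of the 380 genes of that length with the A673 call, 17.4% had HOXD13 peaks in both lines and 51.8% in A673, and of all 765 genes with the call, 11.1% and 42.6%. Of the 510 genes with the CHLA10 call, 24.3% had a HOXD13 peak in A673 and 2.94% in CHLA10.

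Distal H3K27ac regions, those over 2.5 kb from every gene boundary, separated the lines at several members. Over the genome 4048 regions were in both A673 libraries and neither CHLA10 library, and 7919 the reverse. Within 100 kb, 33 members had an A673 region (51.6%, beside 38.3% of all genes), 28 had a CHLA10 region (43.8%, beside 39.6%), and 18 had a region found in all 4 libraries (28.1%, beside 21.9%). These shares are not matched for gene length. Of all genes of at least the members' median length, 42.1% had an A673 region, and their CHLA10 share is not given. ROBO2, the longest member at 1743 kb, had 0 A673 regions and 17 CHLA10 regions, and 16 of the 17 touched the gene. The number 17 was reached by 2 of the 19122 genes, and by 0.0361% of genes of at least the members' median length. The related receptor ROBO1 had 7 A673 regions, reached by 0.343% of genes of at least the members' median length, and 5 CHLA10 regions, reached by 4.56%. SEMA3C had 0 A673 and 9 CHLA10 regions, which 39 genes (0.204%) and 0.703% of the longer genes reached. SEMA3D had 2 A673 and 7 CHLA10 regions (0.502% of all genes and 1.70% of the longer ones reached 7). SLIT3 had 0 A673 and 4 CHLA10 regions and SEMA5B had 1 A673 and 4 CHLA10 regions, and 3.13% of all genes and 8.51% of the longer ones reached 4. EFNA2 ran the other way, with 5 A673 regions (0.852% of all genes) and 0 CHLA10 regions.

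Some of these regions lay in H3K4me3 peaks. They include 1 region each of SEMA3A, SEMA3C and SEMA3D in the strongest H3K4me3 peak of the gene, which is the H3K27ac described above at those peaks. With regions overlapping an H3K4me3 peak of any library left out, an alternative chosen after seeing the data, 3681 A673 and 5859 CHLA10 regions remained. An A673 region then lay near 31 members (48.4%, beside 36.1% of all genes) and a CHLA10 region near 26 (40.6%, beside 30.9%). ROBO2 had 0 A673 and 11 CHLA10 regions, a number 3 genes reached (0.0541% of the longer ones), and ROBO1 had 6 A673 and 2 CHLA10 regions. SEMA3C had 0 A673 and 6 CHLA10 regions, which 1.37% of the longer genes reached, and SEMA3D had 2 A673 and 5 CHLA10 regions (2.49%). The numbers at SLIT3, SEMA5B and EFNA2 were the same as before.

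**Figure D5:**
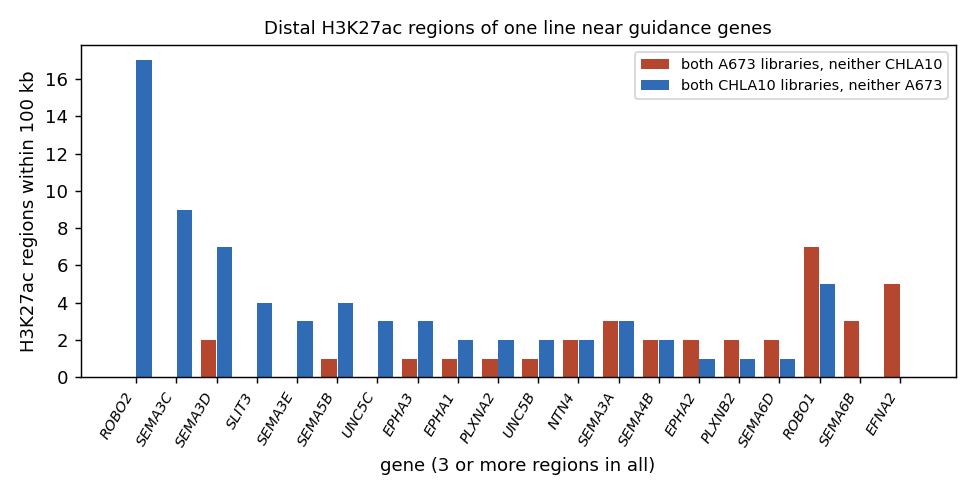
Bars count the distal H3K27ac regions within 100 kb of each gene that were found in both A673 libraries and neither CHLA10 library (red, left) or the reverse (blue, right), for the 20 members with 3 or more in all. ROBO2 has 0 in A673 and 17 in CHLA10, and EFNA2 has 5 in A673 and 0 in CHLA10.

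H3K27me3 calls and distal H3K27ac regions were set side by side. Of the 9 members called for H3K27me3 in A673, 1 had more A673 than CHLA10 regions, 5 had more CHLA10 regions and 3 had equal numbers. Over all 765 genes with that call the shares were 14.0%, 44.1% and 42.0%. Of the 4 called in CHLA10, 2 had more A673 regions, 0 had more CHLA10 regions and 2 had equal numbers, beside 20.0%, 10.0% and 70.0% of the 510 genes with that call. HOXD13 peaks overlapped 1 of the 55 A673 regions near members in A673 (1.82%, beside 5.78% of all such regions), and 7 of the 84 CHLA10 regions in CHLA10 (8.33%, beside 6.06%). The 7 CHLA10 regions lay near EPHA3, EPHA5, NTN4, PLXND1, ROBO2, SEMA3C and SEMA5B. A673 HOXD13 peaks also overlapped 7 of the 84 CHLA10 regions (8.33%, beside 5.58%), near PLXND1, SEMA3A, SEMA3C, SEMA3D and SEMA3E.

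Other genes of the pathway were taken from lists of 10 further receptors and co-receptors, 10 further ligands and 36 intracellular effectors. None of the 10 receptors and co-receptors was called for a mark in either line. Among ligands, SHH was called for H3K4me3 in A673 and FLRT1 in CHLA10. NTNG2 was called for H3K4me1 in A673, and CXCL12 and NTNG2 for H3K27me3 in CHLA10. Among effectors, LIMK1 was called for H3K27ac in A673, and FYN and RHOA in CHLA10. LIMK2 and VAV3 were called for H3K4me1 in A673, and SRGAP3, a GTPase-activating protein of the SLIT-ROBO pathway, for H3K27me3 in A673. H3K4me3 with H3K27me3 stood at CXCR4, RGMA, DPYSL3 and VAV3 in both lines. HOXD13 peaks lay within 100 kb of 8 of 10 receptors, 6 of 10 ligands and 26 of 36 effectors in A673, and of 2 receptors, 1 ligand and 12 effectors in CHLA10. The shares over all genes were 39.6% and 12%, and 53.7% and 19.7% over genes of at least the members' median length. Those for the mark calls are given with the members' counts above. Both NRP1, a co-receptor of class 3 semaphorins, and NEO1, a netrin receptor, had peaks in both lines.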

How the data were processed

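CUT&RUN libraries were prepared on an automated platform, per the labels' protocols. The deposited peak lists number 18, each called on a single library, and 4 IgG libraries were not used. The submitters' processing notes name Bowtie2, MACS2, SEACR 1.2, bedtools and hg38, with no roles. Peak names in the deposited lists place HOXD13, H3K27ac, H3K4me1 and H3K4me3 calls against IgG, while H3K27me3 peaks are broad, without a control, and at least 2000 bp long. For each peak the authors give a fold enrichment (a ratio), a −log10 p and −log10 q value, and a score, which equalled 10 times the −log10 q value without its decimals. The numbering of the deposited peaks skips, and the lists hold 1.00% to 77.2% of the highest number by an unstated criterion, and differences between lists carry that selection. Read depth is unknown.

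Genes came from a RefSeq table of GRCh38.p14, the same coordinates as hg38, with boundaries but no exons. Both boundaries were used because the promoter table gave a start for 55 of 64 members, and the start alone was an alternative. Calls, overlaps (1 bp) and distances were computed with Python 3.11.15, numpy 2.4.6, pandas 2.3.3 and scipy 1.17.1, and the overlap code was tested on simulated peaks. H3K27ac peaks of the 4 libraries were merged for the distal regions. Named are members called in 1 line for a mark, with HOXD13 peaks in both lines, among the 10 highest HOXD13 −log10 q values of a line, with H3K4me3 and H3K27me3 in all libraries, or with no mark. Others, such as those with a large difference in cover or distal regions, were named after their values were seen. The members and gene lists were chosen with earlier results of these data known. No promoter windows were given for 9 members, and the sequence under HOXD13 peaks was not analysed here.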

Additional observations from a re-analysis of the deposited data

How the results depend on the processing

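No paired analysis was possible because no result comes from a test, and the labels do not say that the numbers 1 and 2 mark a shared culture or day. Of 28 calls of a member for a mark in 1 line, 12 held under each alternative window, list cut and overlap run for them and 0 passed to the other line. The counts below moved by more than 1.5 times, and the cause was not tested. Shares of all genes under these settings are not given beside them, so the moves do not set members apart from other genes. With windows of 2.5 kb, calls for A673 and CHLA10 were 1 (A673) for H3K4me3, 4 and 3 for H3K27ac, and 18 and 1 for H3K4me1, and active promoters were 5 and 5. With the start alone they were 1 and 1 for H3K4me3, 0 (CHLA10) for H3K27ac, and 5 (A673) for H3K4me1, and active promoters were 0 and 0. Keeping the 50% of peaks with the highest −log10 q per list, they were 1 and 6 for H3K4me3, 4 (A673) for H3K27ac, 5 (A673) for H3K4me1 and 1 (CHLA10) for H3K27me3. H3K4me3 with H3K27me3 was then 5 in A673 and 2 in CHLA10, and HOXD13 counts were 9 in CHLA10, 9 in both lines and 2 for overlapping peaks. With lists of equal peak number they were 1 (A673) for H3K4me3, 4 (A673) for H3K4me1, 2 (CHLA10) for H3K27me3 and 5 (CHLA10) for H3K4me3 with H3K27me3, and HOXD13 counts were 17 in A673 and 2 for overlapping peaks. By nearest gene boundary alone, A673 HOXD13 was 18. At the strongest H3K4me3 peak, an alternative chosen after seeing the data, H3K27ac was 0 and 7 and H3K27me3 was 0 in CHLA10. Leaving out the readthrough gene, also chosen then, moved no count by as much.

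Leaving out each replicate in turn gave, for A673 and CHLA10, 0 to 1 and 2 to 4 (H3K4me3), 2 to 8 and 1 to 1 (H3K27ac), 10 to 23 and 0 to 1 (H3K4me1), 9 to 11 and 4 to 6 (H3K27me3), 15 to 17 and 9 to 10 (H3K4me3 with H3K27me3), and 1 to 5 and 1 to 2 (active promoters). Shares of all genes were 2.35% to 2.67% and 2.18% to 2.39% (H3K4me3), and 2.6% to 8.56% and 10.5% to 17.1% (H3K27ac). For H3K4me1 they were 8.7% to 23.1% and 0.356% to 1.55%, and for H3K27me3 4.58% to 5.85% and 2.98% to 3.8%. For H3K4me3 with H3K27me3 they were 6% to 7.07% and 3.2% to 3.7%, and for active promoters 6.54% to 14.4% and 17.2% to 29.1%. H3K4me3 in CHLA10 was 4 without CHLA10 replicate 2, H3K4me1 in CHLA10 was 1 without either CHLA10 replicate, and H3K4me3 in A673 was 1 without A673 or CHLA10 replicate 2. HOXD13 has 1 library per line, and peak lists without read counts set no detection limit, so a missing peak is not evidence of no signal.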
